A study of Mus musculus with 2 samples.

Results

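The T-box, GATA, forkhead and SOX genes code for 4 families of transcription factors that set cell identity in the embryo. They were read here in embryonic fibroblasts (MEFs), connective tissue cells taken into culture from embryos, of C57BL/6J mice that lack the Lats2 kinase (LATS2-/-, KO) and of wild-type mice (LATS2+/+, WT), with no treatment in either. LATS2 is a kinase of the Hippo pathway, which holds the coactivators YAP and TAZ out of the nucleus. RNA of both genotypes was labelled with Cy5 (red) or Cy3 (green) and competed for the long oligonucleotide probes of an Agilent array of the whole mouse genome, and the dyes were exchanged on a second array. Neither array is labelled as a separate culture or animal, so both were taken as a technical dye swap and counted as 1 replicate, and no test of the genotypes was possible. Values are given as the log2 ratio of KO over WT on each array and as their mean, with the SD between the 2 arrays, which measures hybridisation and dye error only.

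The members were all probes of the array, controls left out, whose gene name is Eomes, a Tbx gene with a number, Gata1 to Gata6, a numbered Fox gene of the classes A to S other than Foxm1, or a numbered Sox gene. This gave 129 probes of 76 genes among the 27579 gene names of the array. The 76 genes comprise 14 T-box, 6 GATA, 36 forkhead and 20 SOX genes, and a gene with several probes was represented by its brightest. Of the 82 protein-coding genes in the RefSeq table that bear such a name, 75 were found among the members by symbol or synonym.

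Lats2 itself went against the labels. Its brightest probe gave log2 ratios of 0.51 and 0.61 on the arrays with KO in Cy5 and in Cy3. It was thus higher in the RNA labelled KO. Of its 4 probes 3 were higher there and 1, at -0.35, was lower. The 3 lie close together on chromosome 14 (56644080-56645305 in the build of the files), and those at 56644080 and 56644108 overlap. The lower one lies apart, at 56676512. The 3 are thus not readings of separate parts of the gene. The sources used here do not say which part of the gene was deleted, and a probe outside the deleted part checks nothing. All directions below therefore rest on the labels, and KO and WT stand for the RNAs that bear these labels. Lats1, the paralogue of Lats2, stood at -0.03. No spot was saturated on either array, and the spread of a single detected probe between the arrays was 0.14 log2 units (SD). All 10 fibroblast markers on the list, among them Col1a1, Pdgfra and Thy1, were detected and 0 were called. Their median was -0.33, from Vim at -0.89 to Fn1 at 0.90. Vim alone of these was not detected in both RNAs, being well above background in KO on only 1 array. The summed signal of the fibroblast markers on a log2 scale was 16.8 to 16.9 in KO and 17.1 in WT on both arrays.

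As background, T-box factors bind DNA through the T-box domain and pattern the limbs, the heart and the early germ layers. GATA factors carry zinc fingers that read the letters GATA, and divide into a blood and trophoblast group (Gata1 to Gata3) and a heart and gut group (Gata4 to Gata6). Forkhead factors bind as a winged helix, several of them open closed chromatin, and the FoxO class is kept out of the nucleus by insulin signalling. SOX factors bend DNA through an HMG box, and include Sox9, the regulator of cartilage, and the SoxC class (Sox4, Sox11 and Sox12) of progenitor cells. In fibroblasts such genes record where in the body the cells came from, and regulators of other lineages are held silent by Polycomb repressive complexes.

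The promoters of the members at both ends of the range are shown first, because they are the regulatory sequence through which these genes are switched on. Each stretch holds the 250 bases before and 50 bases after the annotated start in RefSeq (build GRCm38.p6), written along the gene's strand. Capitals mark the letters of 3 kinds of promoter element on either strand, and no match overlapped another. The GC box was searched as GGGCGG. The CCAAT box was searched by the letters that name it. The letters searched for the TATA box were TATAA. Gata3 lies at chr2:9878551-9878850 (minus strand), Eomes at chr9:118477939-118478238 (plus strand), Foxc1 at chr13:31806396-31806695 (plus strand) and Tbx20 at chr9:24774254-24774553 (minus strand). Foxc2 and Foxo6 had no entry.

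Gata3: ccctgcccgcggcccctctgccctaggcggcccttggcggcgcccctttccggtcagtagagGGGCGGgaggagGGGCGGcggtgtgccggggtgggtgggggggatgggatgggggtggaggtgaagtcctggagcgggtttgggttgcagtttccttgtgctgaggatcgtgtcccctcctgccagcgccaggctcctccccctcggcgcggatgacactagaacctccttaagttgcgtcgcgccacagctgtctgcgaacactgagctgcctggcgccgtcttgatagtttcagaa
Eomes: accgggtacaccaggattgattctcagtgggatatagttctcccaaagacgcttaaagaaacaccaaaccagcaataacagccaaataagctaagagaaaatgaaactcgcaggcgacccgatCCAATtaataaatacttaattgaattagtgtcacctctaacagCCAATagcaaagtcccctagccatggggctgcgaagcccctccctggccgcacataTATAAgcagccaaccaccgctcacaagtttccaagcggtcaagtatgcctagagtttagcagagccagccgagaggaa
Foxc1: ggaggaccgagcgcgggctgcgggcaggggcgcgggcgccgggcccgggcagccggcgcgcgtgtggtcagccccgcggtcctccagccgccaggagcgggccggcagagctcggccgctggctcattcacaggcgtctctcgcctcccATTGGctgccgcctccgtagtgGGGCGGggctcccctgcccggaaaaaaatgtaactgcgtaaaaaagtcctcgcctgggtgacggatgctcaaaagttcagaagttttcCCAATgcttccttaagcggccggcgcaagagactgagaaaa
Tbx20: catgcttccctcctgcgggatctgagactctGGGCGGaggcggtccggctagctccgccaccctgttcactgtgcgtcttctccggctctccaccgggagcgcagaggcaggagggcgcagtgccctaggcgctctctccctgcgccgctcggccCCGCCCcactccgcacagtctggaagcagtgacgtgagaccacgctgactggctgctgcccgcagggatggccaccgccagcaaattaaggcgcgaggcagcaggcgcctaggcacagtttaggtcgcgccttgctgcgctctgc

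The 4 promoters differed in make-up. The Eomes stretch held 47.3% G and C and 10 CpG pairs, and had a TATA box that begins 28 bases before the start. The other stretches held 67.3% (Gata3), 67.3% (Foxc1) and 68.3% (Tbx20) G and C, with 22, 32 and 26 CpG pairs, and each had at least 1 GC box and no TATA box. Promoters were listed for 51 of the members, with 65 entries. Of these 63.1% held the GC box, against 35.7% of all 32851 promoters in the table, while the TATA box letters were in 24.6% and 24.9%, and the CCAAT box in 46.2% and 37.4%. The median ratio of observed to expected CpG pairs was 0.67 in the members' promoters and 0.38 in all. None of the 4 stretches held the letters GGAATG, which TEAD factors, the DNA-binding partners of YAP and TAZ, recognise. Over all members 13.8% of the promoters held them, and 14.7% of all promoters. Letters read by the families themselves were searched on both strands as well. For the GATA factors these were AGATAA. For the T-box factors the search used GTGTGA. The forkhead factors were given TGTTTA. For the SOX factors the letters ACAATG were taken. None was found in the 4 stretches, and each was in 7.69% to 10.8% of the members' promoters, against 11.2% to 14.5% of all.

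Of the 76 genes, 39 were detected, which means that the probe was well above background by the scanner software's flag, on both arrays, in at least 1 of the RNAs. Of these 36 were detected in both RNAs, and Foxd2, Foxp2 and Foxo3a were detected on both arrays in the KO RNA only. The call rule asked for a 2-fold difference (1 log2 unit) on each of the arrays, with the same sign, and for a signal well above background on both in the RNA with the higher level. By this rule 2 members were called higher in KO, Gata3 and Eomes, and 0 were called lower. That is 5.13% of the detected members, beside 2.95% of all 15877 detected genes called higher and 2.59% called lower. The median of the 39 detected members was 0.03, and that of all detected genes -0.003. The typical size of a ratio, without its sign, had a median of 0.21 in the members and 0.23 in all detected genes. At a lower threshold of 0.5 log2 units on each array, chosen after the values were seen, 5 members stood higher (Gata3, Eomes, Foxc1, Foxd1 and Sox4) and 2 lower (Foxc2 and Tbx20). The backgrounds at that threshold were 9.03% and 9.08% of all detected genes, beside 12.8% and 5.13% of the detected members.

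**Figure D1:**
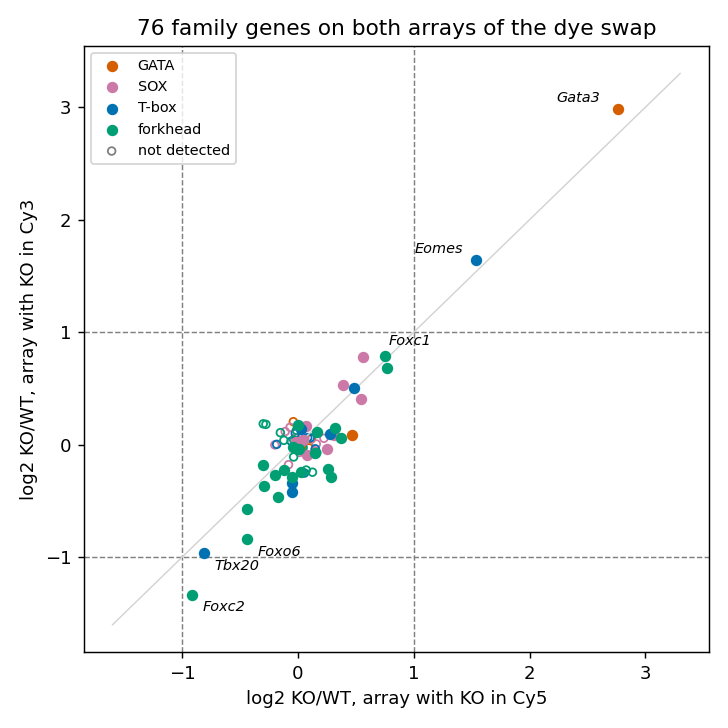
Log2 ratio of KO over WT of each of the 76 genes on the array with KO in Cy5 (horizontal axis) and on the array with KO in Cy3 (vertical axis), by family. Filled points are the 39 detected genes and open points the others. The broken lines mark 2-fold. Gata3 and Eomes are beyond the lines on both axes, and Foxc2 is beyond the line on the vertical axis only.

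Over the 39 detected members the arrays gave Pearson's r = 0.96 and Spearman's rho = 0.85, across genes that share both RNAs and the slide and that are not independent replicates. Gata3 had the highest ratio of the members, followed by Eomes. Both code for factors known for the trophoblast, and both also work in blood lineages: Gata3 in T cells, Eomes in T and natural killer cells.

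Gata3 (chr2:9775209-9775268 in NCBI36, mm8, the build of the files) is read by 1 probe. Its normalised signal was 622 units in KO and 91.8 in WT on the array with KO in Cy5, and 508 in KO and 64.2 in WT on the other. The KO values lay well above both WT values, and the WT values were close to the dimmest signals that still stood out from background. The log2 ratio was 2.76 and 2.98, with a mean of 2.87 ± 0.16 (SD between 2 arrays), a 7.33-fold difference. Gata3 took place 49 among the 469 genes called higher. Because the WT signal was low, the size depended on the treatment of background: the scanner software's own ratio was 4.95 on the log2 scale.

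Eomes (chr9:118333866-118333925 in mm8), which starts mesoderm and endoderm formation and is needed for trophoblast stem cells, is also read by 1 probe. Its normalised signal was 248 units in KO and 85.7 in WT on the first array, and 187 in KO and 59.8 in WT on the second. The KO values again exceeded both WT values. The WT value on the second array was the dimmest WT signal there that still stood out from background. The log2 ratio was 1.53 and 1.64, with a mean of 1.59 ± 0.08 (SD between 2 arrays), a 3.01-fold difference, and the scanner software's ratio was 3.69. As for Gata3, the size of the Eomes ratio depended on the treatment of background. Eomes took place 212 among the genes called higher.

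**Figure D2:**
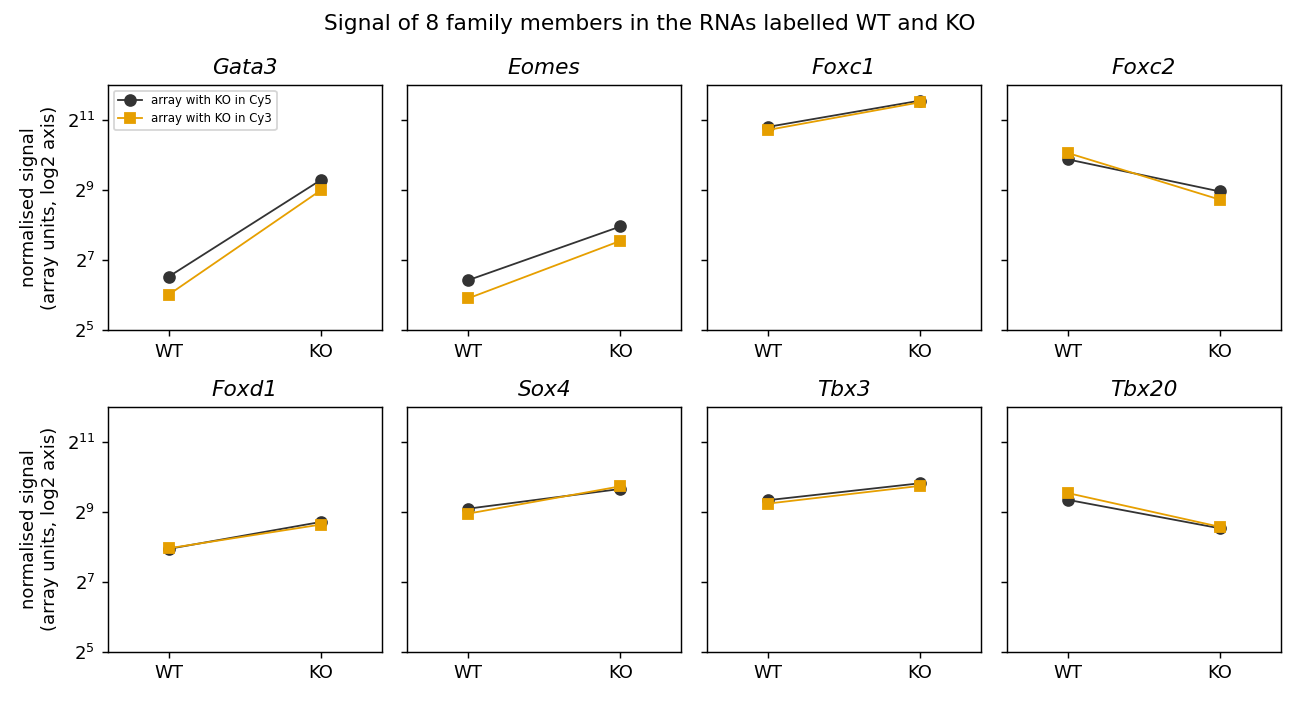
Normalised signal (array units on a log2 axis, with the offset of 50 units added before normalisation) of 8 members in the RNAs labelled WT and KO. Circles are the array with KO in Cy5 and squares the array with KO in Cy3, and each line joins both RNAs on 1 array. The lines of Gata3 and Eomes start near the bottom of the axis in WT and are the steepest. Foxc1 slopes up and Foxc2 down on both arrays.

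The markers of the cell types that use Gata3 and Eomes were read beside them. Of 9 trophoblast markers measured, 2 were detected. Prl3d1, a placental lactogen of giant cells, was called higher at 1.10, and Ascl2, a factor of the ectoplacental lineage, stood at -0.01. Cdx2, Elf5, Hand1, Tpbpa, Esrrb, Plac1 and Gcm1 were not detected. The summed signal of the list on a log2 scale was 9.60 to 9.66 in KO and 9.39 in WT on both arrays. Of 7 haematopoietic markers 4 were detected and 1 was called, Lyzs (lysozyme) at 1.10, while Ptprc, the common leukocyte antigen, was not detected and the T cell gene Cd3e stood at 0.01. Their summed signal was 10.8 in KO on both arrays and 10.1 in WT on both. Of 7 epithelial markers 3 were detected and 1 was called, the keratin Krt19 at 2.12, while Cdh1, Krt8 and Krt18 were not detected, with a summed signal of 9.58 to 9.67 in KO and 9.05 to 9.07 in WT. Of 3 mesothelial markers only Msln was detected, at 0.86 and not called, and the summed signal was 8.05 to 8.06 in KO and 7.55 to 7.75 in WT. The part of these cell types, and of the lower fibroblast signal in KO, in the Gata3 and Eomes values was not tested, and in such bulk RNA more cells of a type and more RNA per cell cannot be told apart. No endothelial (0 of 6), skeletal muscle (0 of 5) or pluripotent (0 of 3) marker was detected.

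Among the GATA genes, Gata2 was the other member detected. Gata2, a regulator of blood stem cells that shares its group with Gata3, gave normalised signals of 224 in KO and 163 in WT on the array with KO in Cy5, and of 199 and 187 on the other. The ratio was 0.47 and 0.09 on the log2 scale, with a mean of 0.28 ± 0.27 (SD between 2 arrays), and a second probe stood at 0.15. The Gata3 ratio exceeded that of Gata2 by 2.30 and 2.90 log2 units on the 2 arrays, with an SD of 0.42. The pooled spread of a single probe implies an SD of 0.19 for a difference of 2 probes. Both SDs were smaller than the difference and measure hybridisation and dye error only. Gata1, Gata4 and Gata5 were well above background in no channel of either array, and Gata6 only in WT on 1 array by 1 of its 3 probes, so neither the erythroid factor nor the heart and gut group counted as detected.

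Proteins that work with GATA factors were taken from a list. Of 7 measured genes 6 were detected and 0 were called, with a median of -0.27. Trps1, an atypical GATA-type repressor of cartilage and hair, came nearest at -0.78 and -1.08. The friend-of-GATA cofactors stood on opposite sides, Zfpm1 at 0.78 and Zfpm2 at -0.39. Lmo4, a LIM-only adaptor, stood at -0.59.

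Of the 14 T-box genes 7 were detected, with a median of 0.09, whose sign turned on the array with KO in Cy5 alone (-0.01). Apart from Eomes, Tbx3 was the highest and Tbx20 the lowest. Tbx3, a repressor that acts in limb and mammary development and blocks senescence genes, gave normalised signals of 899 in KO and 643 in WT with KO in Cy5, and of 853 and 601 with KO in Cy3. This gave log2 ratios of 0.48 and 0.51, with a mean of 0.49 ± 0.02 (SD between 2 arrays), and its second probe, not detected, stood at 0.00. Tbx2, the paralogue of Tbx3 with the same repressor role, stood at 0.27 and 0.09. The limb and heart genes of the same subfamily, Tbx4 (hindlimb) and Tbx5 (forelimb and heart), were well above background in no channel.

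Tbx20, a factor of the heart and its lining, had the second lowest ratio of all members. Its brightest probe (chr9:24472173-24472232 in mm8) gave 369 units in KO and 648 in WT on the array with KO in Cy5, and 379.5 in KO and 741 in WT on the other. Both KO values lay below both WT values. The log2 ratio was -0.81 and -0.97, with a mean of -0.89 ± 0.11 (SD between 2 arrays), or 54.0% of the WT level, just short of the 2-fold rule on each array. The probe next to it, 1540 bases upstream, stood at -0.64. The probes 18866 and 26850 bases upstream stood at 0.03 and -0.02, and the farther of these was not detected. The nearer of these gave only 77.1 to 87.2 units, close to background, where the offset pulls ratios towards 0. Its relatives Tbx15 and Tbx18, which mark dermis, limb and body wall mesenchyme, stood at -0.20 and -0.24. Tbx6, a factor of the presomitic mesoderm, stood at 0.09. Tbx1, Tbx10, Tbx19 and Tbx22 were well above background in no channel, and Tbx21 (T-bet) in 2 of the 4. Of the T-box relatives that the name rule leaves out, Mga, which also carries a Max-type domain, stood at -0.03, and brachyury (T) and Tbr1 were not detected.

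**Figure D3:**
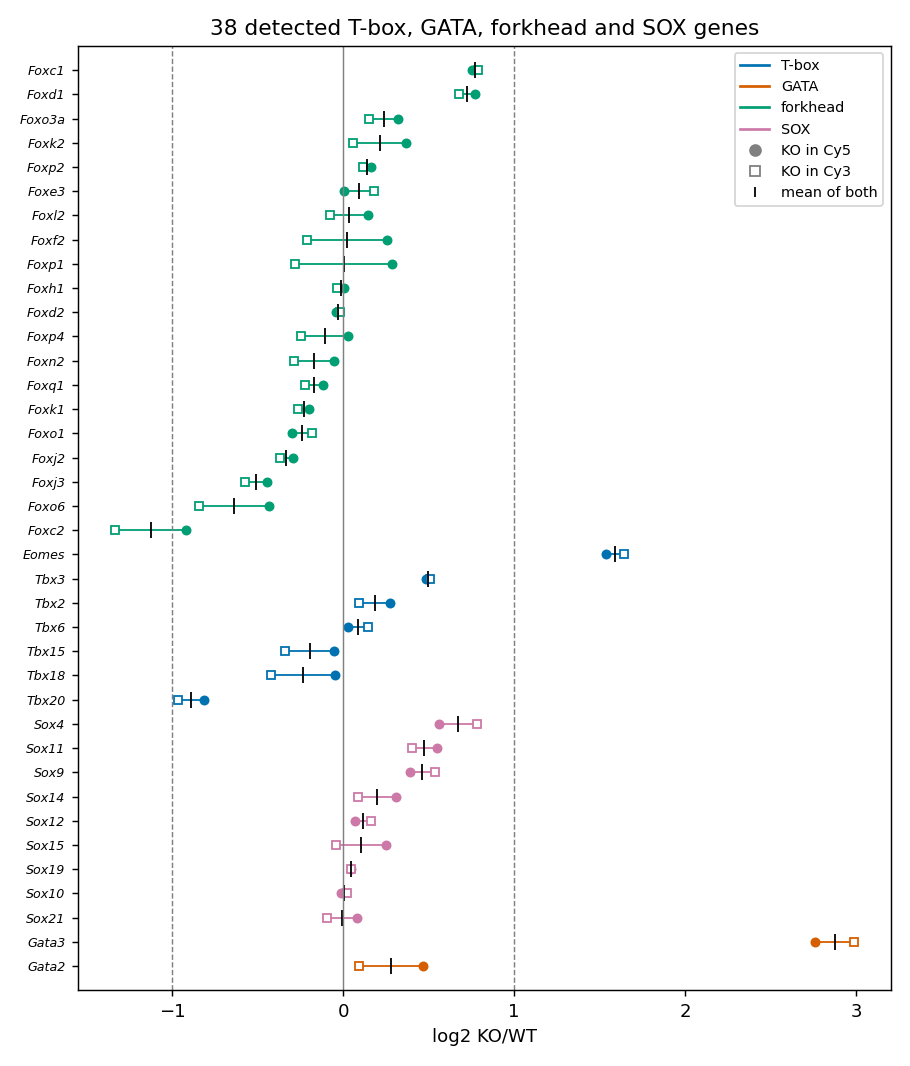
Log2 ratio of KO over WT of 38 of the 39 detected genes, grouped by family and ordered by their mean. Circles are the array with KO in Cy5, squares the array with KO in Cy3 and vertical strokes the mean of both. The broken lines mark 2-fold. Most genes lie between the lines. Gata3 and Eomes lie to the right of them, and the mean of Foxc2 lies to the left.

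The forkhead family was the largest, with 21 of 36 genes detected, and had no call in either direction. Its median was -0.03, and 0.01 with median centring. Taking the spread of a single probe as the measure, 7 forkhead genes were below -0.14 on both arrays and 3 above 0.14 on both. Over all 15877 detected genes that held for 27.6% and 26.4%, and over the detected forkhead genes for 33.3% and 14.3%.

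The widest difference within a subfamily, after that of the GATA pair, was between Foxc1 and Foxc2, paralogues that overlap in mesenchyme, eye and vessel development. Foxc1 (chr13:31816853-31816912 in mm8) gave 3001 units in KO and 1784 in WT on the array with KO in Cy5, and 2904 in KO and 1679 in WT on the other. Its log2 ratio was 0.75 and 0.79, with a mean of 0.77 ± 0.03 (SD between 2 arrays), or 1.71-fold. Foxc2 (chr8:124004770-124004829 in mm8) gave 497 units in KO and 939 in WT on the first array, and 423 in KO and 1066 in WT on the second. Its log2 ratio was -0.92 and -1.33, with a mean of -1.13 ± 0.29 (SD between 2 arrays), or 45.8% of the WT level. It missed the rule on 1 array alone. The ratio of Foxc1 exceeded that of Foxc2 by 1.67 and 2.12 log2 units.

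Foxd1, a factor of the kidney stroma, was higher by both of its probes, which lie 83 bases apart. The brighter probe gave 418 units in KO and 245 in WT with KO in Cy5, and 396 and 248 with KO in Cy3. On the log2 scale the ratio was 0.77 and 0.68, with a mean of 0.72 ± 0.06 (SD between 2 arrays), and the other probe stood at 0.80. Foxd2, its close relative, was well above background only in KO on both arrays, with a ratio of -0.03. Foxd3, a neural crest factor, was well above background in 1 channel.

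Foxo6, Foxj3 and Foxj2 were also lower in KO on each array. Foxo6, the FoxO member best known from the brain, gave 92.5 units in KO and 125 in WT with KO in Cy5, and 90.6 and 162 with KO in Cy3. The log2 ratios of -0.44 and -0.84 differed between the arrays, with a mean of -0.64 ± 0.29 (SD between 2 arrays), and the scanner software's ratio was -1.78. Foxj3 and Foxj2, transcription factors broadly expressed in adult tissues, stood at -0.51 ± 0.09 and -0.33 ± 0.05 (SD between 2 arrays). The other probes of Foxj3, which were not detected, stood at -0.10 and -0.01. Among the neural markers Tubb3, Nes and Ncam1 were detected, at -0.11, -0.30 and -0.41, and Elavl3 and Gfap were not.

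The other FoxO genes, which carry growth factor signals to cell cycle and metabolic genes, stood on both sides of 0. Foxo1 was at -0.24 by its brighter probe and -0.35 by the other. Foxo3a was at 0.24 by a dim probe of 68.6 to 85.7 units, and at -0.07 by its other probe, which was not detected. Of 15 FoxO target genes measured 14 were detected, with a median of 0.12, and 2 were called in each direction. Whether FoxO factors raise or lower each target was not taken into account, so the median is no reading of their activity. Pdk4, the kinase that shuts pyruvate dehydrogenase, was higher at 2.89, and Txnip, the thioredoxin inhibitor, at 1.38. Fbxo32, a ubiquitin ligase of muscle wasting, was lower at -1.44, and Bcl6, a repressor, at -1.34. The remaining targets, among them Cdkn1b at -0.49 and Ccnd2 at 0.76, were not called.

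Foxk1 and Foxk2, repressors of autophagy genes, stood at -0.23 and 0.21 by their brightest probes. The other probes of Foxk1, detected in both RNAs, stood at -0.03 and -0.02, and those of Foxk2 lay between -0.11 and -0.02. The place of Foxk1 among the 7 forkhead genes below -0.14 on both arrays thus rests on its brightest probe. Foxp1 stood at 0.29 and -0.28 on the 2 arrays, so its mean of 0.00 hides the widest disagreement between arrays among the detected forkhead genes (SD 0.40), and Foxf2, a factor of gut mesenchyme, did likewise at 0.26 and -0.21. Foxq1 stood at -0.17, Foxn2 at -0.17, Foxp4 at -0.11, Foxh1 at -0.01, Foxl2 at 0.03, Foxe3 at 0.09 and Foxp2 at 0.14. The foregut and liver factors Foxa1, Foxa2 and Foxa3, the T regulatory cell factor Foxp3 and the thymus factor Foxn1 were among the 12 forkhead genes well above background in no channel. Groucho proteins, the corepressors that several forkhead and other factors recruit, were read from a list. All 6 were detected and 2 were called lower, Tle6 at -1.92 and Tle2 at -1.07, with a median of -0.26.

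The name rule passes over forkhead genes that the array lists under an older name. Matching accessions to RefSeq found 4 such probes of 3 genes. Foxs1, listed as Fkhl18 and known from pericytes and neural crest derivatives, was higher at 1.71 and 1.59, with a mean of 1.65, and met the call rule. It is no member and was picked out after its value was seen. Foxn3 (listed as Ches1) stood at 0.22 and 0.44 by its probes, and Foxo4 (listed as Mllt7) was not detected.

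Of the 20 SOX genes 9 were detected, with a median of 0.12 and none called. On both arrays 3 lay above 0.14, Sox4, Sox11 and Sox9, and none below -0.14. That is 33.3% of the detected SOX genes, beside 26.4% of all detected genes above 0.14 and 27.6% below -0.14. Sox4 (chr13:28959662-28959721 in mm8), a SoxC factor of progenitor survival, gave 803 units in KO and 544 in WT with KO in Cy5, and 846 and 493 with KO in Cy3. Its log2 ratio was 0.56 and 0.78, with a mean of 0.67 ± 0.15 (SD between 2 arrays), or 1.59-fold. Sox12, the third SoxC gene, stood at 0.12.

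Sox11, the other SoxC gene, is read by 6 probes, all detected in both RNAs, and they split by position. The gene was picked out after its values were seen. The 4 upstream probes, 3316 to 7409 bases upstream of the most downstream one, gave means of 0.38 to 0.48. The most downstream probe gave -0.22 and its neighbour, 522 bases upstream, -0.23. Each of the 4 was above 0.29 on both arrays and each of the other 2 below -0.13 on both, so the sign of the Sox11 ratio depends on the probe. The probes were not placed on transcripts here.

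**Figure D4:**
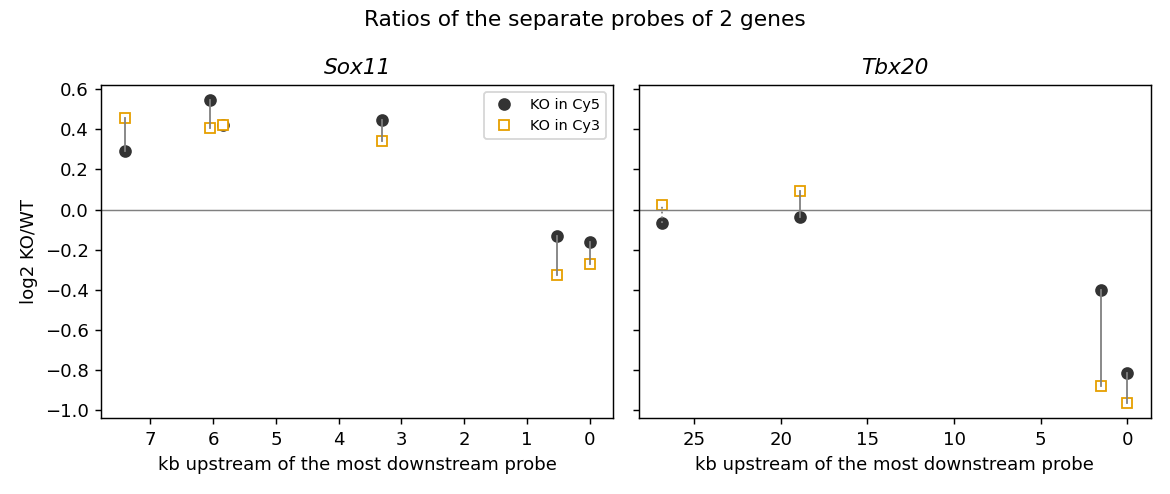
Log2 ratio of KO over WT (vertical axis) of each probe of Sox11 and Tbx20, by its distance in kb upstream of the gene's most downstream probe (horizontal axis, with the downstream end on the right). Circles are the array with KO in Cy5 and squares the array with KO in Cy3, and a dotted line joins a probe that was not detected. For Sox11 the 4 upstream probes lie above 0 and the 2 downstream ones below it. For Tbx20 the 2 downstream probes lie below 0, and the others, which are dim, lie near it.

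Sox9, the regulator of cartilage and of several epithelial stem cells, gave 774 units in KO and 589.6 in WT with KO in Cy5, and 823 and 568 with KO in Cy3. These are log2 ratios of 0.39 and 0.53, with a mean of 0.46 ± 0.10 (SD between 2 arrays), and its second detected probe stood at 0.45. Of 13 cartilage genes known to act under Sox9, 7 were detected, with a median of 0.01. Of these 1 was called, the collagen Col11a1, which was lower at -2.28, while Col2a1 stood at -0.33, Acan at 0.01 and Col11a2 at 0.62. Sox10, the neural crest and glial factor, stood at 0.00. Of the 7 Schwann cell and melanocyte markers 4 were detected and 0 called. The remaining detected SOX genes, Sox14, Sox15, Sox19 and Sox21, lay between -0.01 and 0.20. The pluripotency factor Sox2, the endothelial factors Sox7, Sox17 and Sox18, and the cartilage partners Sox5 and Sox6 were well above background in no channel.

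Genes that T-box and GATA factors act with in the limb, body wall and heart were read from lists. Of 19 limb and body wall patterning factors 15 were detected, with a median of -0.23. Msx1 and Lhx9, limb bud homeobox genes, were called lower at -2.07 and -1.58. Of 9 heart genes that Tbx5 and Gata4 act on, 7 were detected, with a median of 0.12, and 1 was called, the myocyte factor Mef2c, lower at -1.35.

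The 12 members named by rank, call or kinship and reported here kept their sign under the 10 other ways of processing that gave each a value. Most of them were picked for the extremes of these same values. Scaling between the arrays and keeping flagged spots returned the same value for every member named. The authors' ratios repeated those of the scanner software. The kept signs are therefore no test of stability. For Gata3, Eomes, Foxo6, Foxd1, Tbx20 and Tbx3 the scanner software's ratio was the most extreme.

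**Figure D5:**
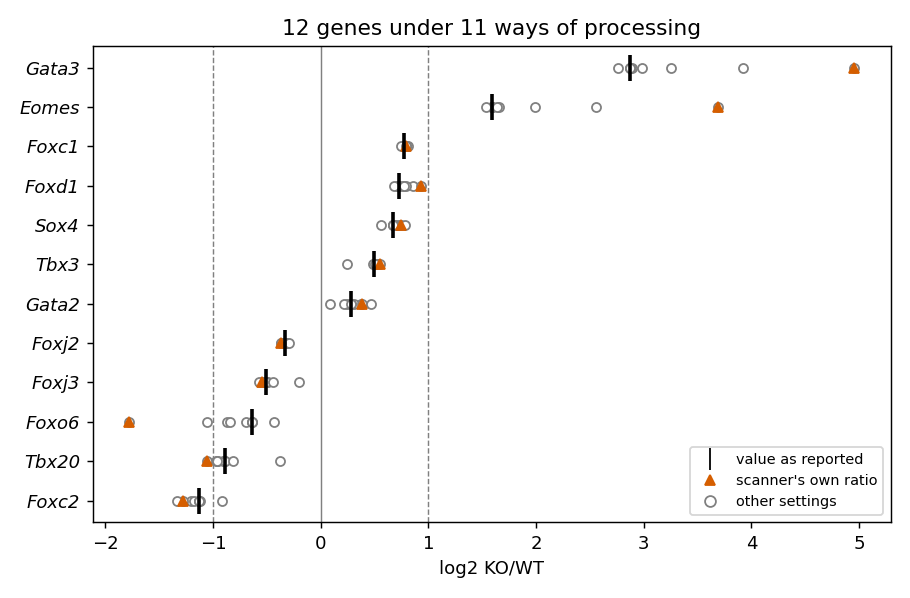
Log2 ratio of KO over WT (horizontal axis) of 12 members under 11 ways of processing. Strokes are the values as reported, triangles the scanner software's own ratio and circles the other settings. The broken lines mark 2-fold. Gata3 runs from 2.76 to 4.95 and Eomes from 1.53 to 3.69, while the circles of Foxc1 lie close together.

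The 37 members that were not detected lay between -0.13 and 0.14 in their mean ratio. At signals so close to background a difference was not detectable, and their ratios say nothing of the level of these genes. By the brightest probe, 32 of these were well above background in no channel and 5 in a part of the channels.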

How the data were processed

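RNA of MEFs labelled KO and WT was compared on 2 arrays with exchanged dyes, which lie on 1 slide. Per the file headers, the arrays were read with Agilent Feature Extraction 10.5.1.1, and mean and local background signals of each spot were deposited by the authors as intensity. The deposited tables also hold Feature Extraction's log10 ratio of Cy5 over Cy3, and the authors deposited a table of log2 ratios that equals KO over WT from the processed signals. Background was corrected by normexp with an offset of 50, followed by loess within each array (R 4.3.3, limma 3.58.1). The offset pulls ratios of dim probes towards 0. Of 45018 spots, 1639 controls and those flagged as outliers were left out, spots of a probe were averaged (a share of 0.5 of them had to be well above background), and the dye-swapped array was turned. Normalised signals are channel values after Aquantile. A probe dim in 1 RNA on both arrays has only a bound, against the higher of the lowest signal well above background and its own signal. The number of arrays limits the precision. The study's methods state a 2-fold threshold and a t-test for such MEFs, and whether these arrays are the ones meant there was not settled from the sources used here. With 1 replicate the t-test was run only as an alternative. Genes named individually were the called members, those with a bound of at least 2-fold, the 6 highest and 6 lowest detected in both RNAs, the detected relatives of a called member, those with probes over 1 log2 unit apart, and Lats2. Members, lists and rules were chosen with earlier results of these data known. The ratio and call steps were tested on simulated data. Some genes that these rules name are not reported here. Probe positions within exons were not analysed here.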

Additional observations from a re-analysis of the deposited data

How the results depend on the processing

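The calls of Gata3 and Eomes were kept under 15 of the 16 planned settings. Several of these could not lose a call. The call rule itself implies a call by each array alone, by the mean of both and without the detection filter. Aquantile left the ratios unchanged, and the authors' value table gave the same calls as Feature Extraction's ratio. The count is therefore no measure of support. Adjusted with the Benjamini-Hochberg method, the methods' t-test on the 2 arrays called 0 members higher and 0 of all genes, against 2 members, and 408 and 356 genes in all, at the unadjusted threshold of the methods. limma on both arrays called 2 members higher and 1 lower. Such tests measure dye and hybridisation error only. The count of members called lower, 0 as reported, became 3 (Foxc2, Foxo6 and Tbx20) by Feature Extraction's ratio and 3 by the authors' value table, and 1 (Foxc2) with the array with KO in Cy3 alone and 1 with the mean of both arrays at least 2-fold. With 0.5 log2 units on each array, added after the values were seen, 5 were higher and 2 lower. The median of the detected members lay between -0.0004 and 0.07 in all settings. Over all genes Feature Extraction's ratio gave 941 higher and 866 lower, and median centring 252 and 139, beside 469 and 411 as reported, so median centring moved the share of higher calls. No named member changed sign in 120 recomputed values, of which 27 moved by more than the SD of a single probe. These values include settings that return the same ratios, and most of the members were picked for extreme ratios. The count is therefore no test of stability. The median of the detected T-box genes, 0.09 as reported, was -0.01 with the array with KO in Cy5 alone, and that of the forkhead genes, -0.03 as reported, was 0.01 with median centring and -0.20 with the array with KO in Cy3 alone. Gata3 ranged from 2.76 to 4.95, Eomes from 1.53 to 3.69 and Foxo6 from -1.78 to -0.44. No paired analysis was possible because only 1 replicate stands for a genotype. The causes of these shifts were not tested.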

Other observations

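Several members lie near each other in the genome, and their ratios are given side by side. On chromosome 13 the probes of Foxq1 and Foxf2 lie 71.2 kb apart and those of Foxf2 and Foxc1 178.1 kb apart, with ratios of -0.17, 0.02 and 0.77 on the log2 scale. On chromosome 8 the probe of Foxc2 (-1.13) lies 32 kb from that of Foxf1a (0.06), which was not detected. Tbx3 (0.49) and Tbx5 (0.06, not detected) lie 186.9 kb apart on chromosome 5, and Tbx2 (0.18) and Tbx4 (0.04, not detected) 70.1 kb apart on chromosome 11. Distances are between probes in mm8.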
